A study of Homo sapiens with 6 samples.

Results

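Oxidative phosphorylation was read here from 100 genes of HCT116 cells, a human colorectal carcinoma line, of the 20020 genes counted. The members were taken by gene symbol alone, as the subunits of respiratory complexes I to IV and of the ATP synthase (complex V), with names of assembly factors left out. Of these, 13 are encoded by mitochondrial DNA and 87 in the nucleus. RNA-seq compared 3 libraries of CAD-KO+IR cells with 3 libraries of sgVec+IR cells, each collected 24 h after 8 Gy of ionizing radiation (IR). CAD-KO cells are a stable line made with lentiCRISPRv2 and a guide against CAD (caspase-activated DNase, the product of the gene DFFB), and sgVec cells carry the vector control. Both groups were irradiated, no library of non-irradiated cells entered the comparison, and the knockout is represented by 1 line, so that effects of the guide and of that line cannot be told apart. Nothing in the labels says whether libraries of a group came from separate cultures, and p-values measure the spread between these libraries, which may be technical.

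The respiratory complexes pass electrons from NADH and succinate to oxygen and pump protons out of the mitochondrial matrix, and complex V lets the protons back in to make ATP. Mitochondrial DNA encodes the hydrophobic core subunits of complexes I, III, IV and V and is read as long transcripts from both strands that are then cut into mRNAs. The nucleus encodes every subunit of complex II and the rest of the others, and these proteins are imported. Colorectal carcinoma cells in culture use both this pathway and glycolysis.

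Libraries held 14032994 to 19574144 counts, with higher totals in all CAD-KO+IR libraries than in any of sgVec+IR. Of the 7 colorectal epithelium markers, 6 passed the filter on low counts, with KRT8 at 752 to 2045 CPM (counts scaled to a common library size, per 1000000 reads) and EPCAM at 226 to 337 CPM, whereas VIL1 was at most 0.158 CPM. Of the 8 markers of other cell types, only COL1A1 passed it, at 10.9 to 47.8 CPM, with a summed level of all 8 of 25.6 to 39.3 CPM in CAD-KO+IR and 10.9 to 49.3 CPM in sgVec+IR, and DCN and CD3E had no count. DFFB, the targeted gene, was at 10.03, 10.1 and 12.4 CPM in CAD-KO+IR and at 21.8, 22.9 and 20.9 CPM in sgVec+IR (log2 fold change −1.02 ± 0.19 SE, edgeR adjusted p = 0.550). It was lower in every CAD-KO+IR library. The third sgVec+IR library and the second CAD-KO+IR library stood apart from the others of their groups, with sample weights in limma of 0.0404 and 0.154 against 1.79 to 6.75 elsewhere. Values without them stand beside those that change most, and DFFB without them had a log2 fold change of −0.996 (edgeR adjusted p = 1.64e-07). The third sgVec+IR library also had 7561 genes with no count, against 4577 to 5232 in the others. Of the nuclear members 10 had no count in it, against 4 to 5 in the others. Its zeros below, as for NDUFA7, COX16, COX6B2, COX7A1 and NDUFA4L2, carry this limit.

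With all 6 libraries, no member passed the test for a difference between CAD-KO+IR and sgVec+IR. Of the 92 members that passed the filter on low counts (13 mitochondrial and 79 nuclear), edgeR's quasi-likelihood test called 0 (adjusted p below 0.05 and at least 1.5-fold), where 0.0309% of all 12925 genes tested were called. At an unadjusted p under 0.05 the count was again 0 of 92, against 2.85% of all genes. DESeq2 called 0 of the 94 members to which it gave an adjusted p, against 0.271% of the 15123 genes it tested. The 92 members had a median log2 fold change of −0.07 and a median size of difference, regardless of sign, of 0.154, and the medians over all genes tested were −0.01 and 0.156. A difference of at least 1.5-fold was found for 5 members (5.43%; MT-ATP8, ATP5IF1, ATP5ME, NDUFA2 and NDUFA7), against 8.93% of all genes. Without the second CAD-KO+IR and the third sgVec+IR libraries, 1 of them (NDUFA7) kept a difference of that size. NDUFA7 had 17, 19 and 12 counts in CAD-KO+IR and 9, 4 and 0 in sgVec+IR. It passed the filter on low counts only through the group where it is high, and its difference carries this limit.

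The mitochondrial mRNAs took 6.33% to 8.73% of all counts in CAD-KO+IR and 6.46% to 6.82% in sgVec+IR. Their summed level was 63535, 90090 and 65728 CPM in the CAD-KO+IR libraries (73118 ± 14739, SD, n = 3) and 68005, 66806 and 63905 CPM in the sgVec+IR libraries (66239 ± 2108, SD, n = 3). The higher mean of CAD-KO+IR came from its second library, and its other libraries fell on either side of the lowest sgVec+IR library. The summed level of the 87 nuclear genes was 7322, 7497 and 7014 CPM in CAD-KO+IR and 7428, 7417 and 8407 CPM in sgVec+IR. These ranges overlapped too, with the third sgVec+IR library above all others. The ratio of mitochondrial to nuclear CPM was 8.68, 12.02 and 9.37 in CAD-KO+IR against 9.16, 9.01 and 7.60 in sgVec+IR. The mean over libraries of the log2 ratio differed between the groups by 0.21, and by −0.01 without the second CAD-KO+IR and the third sgVec+IR libraries. In bulk RNA, more cells with a high mitochondrial content and more mitochondrial RNA per cell cannot be told apart.

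**Figure D1:**
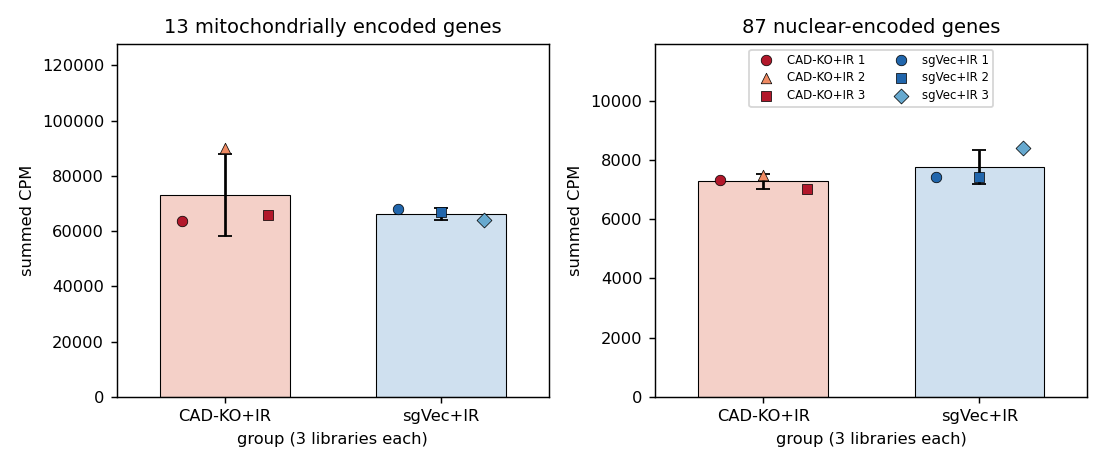
Summed CPM of the 13 mitochondrial (left) and 87 nuclear (right) genes, with bars for group means, error bars for the SD of 3 libraries and points for single libraries. The second CAD-KO+IR library lies at 90090 CPM in the left panel, and the third sgVec+IR library at 8407 CPM in the right panel.

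Per kilobase of transcript, the mitochondrial genes spanned from 15319 CPM per kilobase for MT-CO2 to 238 for MT-ATP8 in CAD-KO+IR, and from 14212 to 408 in sgVec+IR. MT-CO2, MT-CO3 and MT-CO1 encode the catalytic core of complex IV, MT-CYB is cytochrome b of complex III, and MT-ATP6 and MT-ATP8 sit in the membrane part of complex V. The MT-ND genes encode the membrane arm of complex I. MT-CO3, MT-ATP6 and MT-ND4 followed MT-CO2 at 8754 to 9890 CPM per kilobase as group means, and they did not differ beyond their spread, since MT-CO3 covered 7778 to 11477 and MT-ND4 covered 7864 to 12712 over the 6 libraries. MT-CO1 lay at 5346 to 8987, MT-ND2 at 4678 to 7560, MT-CYB at 3755 to 6409 and MT-ND1 at 3658 to 6458, with the ranges of neighbours in this order overlapping. Within every library, however, MT-ND4 was above MT-CO1 and MT-CO1 above MT-ND2. The order of MT-ND2 and MT-CYB, and of MT-CYB and MT-ND1, changed between libraries. MT-ND3 and MT-ND5 were next at 2109 to 2996, then MT-ND6, MT-ND4L and MT-ATP8. The nuclear genome holds near-identical copies of mitochondrial genes, and how reads that match both were counted is not given in the sources used here.

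**Figure D2:**
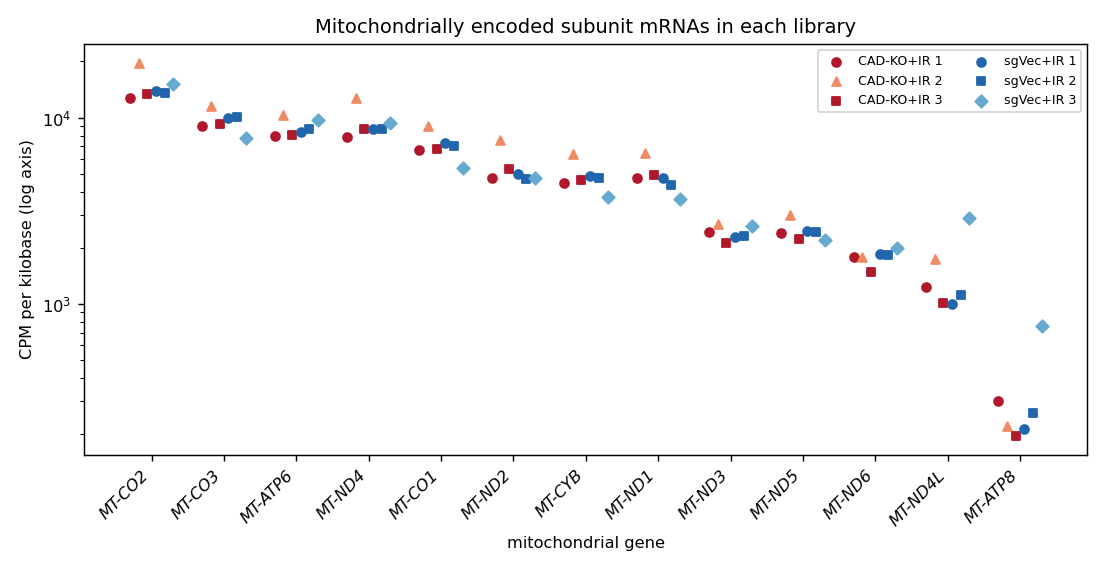
Level of each mitochondrial gene in CPM per kilobase of transcript (log axis) in each of the 6 libraries, ordered by the mean of sgVec+IR. The second CAD-KO+IR library (orange triangles) is the highest for 10 of 13 genes, and the third sgVec+IR library (light blue diamonds) lies apart for MT-ND4L (2885) and MT-ATP8 (756).

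Of the 13 mitochondrial genes, 8 had a positive and 5 a negative log2 fold change, with a median of 0.11. The second CAD-KO+IR library held the highest value for 10 of them, and without that library the median was −0.09. Without that library and the third sgVec+IR library, 4 of 13 were positive and the median was −0.06. Every MT-CO gene and MT-CYB had a positive value in all 6 libraries together and a negative value without both. MT-CO1 was at 10325, 13858 and 10465 CPM in CAD-KO+IR and 11300, 10864 and 8243 CPM in sgVec+IR, a log2 fold change of 0.19 ± 0.17 (SE; edgeR adjusted p = 0.9999), and −0.09 in the 4 remaining libraries. MT-CO2 had a log2 fold change of 0.11 ± 0.17, MT-CO3 of 0.10 ± 0.15 and MT-CYB of 0.22 ± 0.18, and without both libraries these were −0.06, −0.13 and −0.07. MT-ATP6, MT-ND4, MT-ND5 and MT-ND3 lay between −0.03 and 0.13, within 1 standard error of 0.

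MT-ND1 was the mitochondrial gene with the lowest p. It encodes a membrane subunit of complex I next to the quinone site, and it was at 4543, 6174 and 4704 CPM in CAD-KO+IR and at 4525, 4145 and 3497 CPM in sgVec+IR. The groups did not overlap, but the lowest CAD-KO+IR and the highest sgVec+IR library lay 4543 against 4525 CPM apart. The log2 fold change was 0.34 ± 0.16 (SE), with an edgeR adjusted p of 0.9999, and it was 0.10 without the second CAD-KO+IR and the third sgVec+IR libraries. MT-ND2, its neighbour on the genome, stood at 4950, 7877 and 5534 CPM against 5161, 4874 and 4908 CPM, with a log2 fold change of 0.30 ± 0.18, and the groups overlapped.

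MT-ND6 is the mRNA of the mitochondrial light strand, the other 12 being of the heavy strand, and it encodes another membrane subunit of complex I. It was at 935, 937 and 775 CPM in CAD-KO+IR and at 969, 964 and 1048 CPM in sgVec+IR, so that every CAD-KO+IR library was below every sgVec+IR library. The log2 fold change was −0.17 ± 0.13 (SE; edgeR adjusted p = 0.9999), and −0.17 also without the 2 libraries that stood apart. MT-ND6 made up 1.47%, 1.04% and 1.18% of the summed mitochondrial CPM in CAD-KO+IR and 1.42%, 1.44% and 1.64% in sgVec+IR, which overlapped. Whether reads were counted by strand is not given, so reads of MT-ND6 and of transcripts opposite to it cannot be told apart.

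MT-ATP8 and MT-ND4L, the shortest mRNAs, are each translated from a transcript that they share with the gene downstream, whose reading frame begins before theirs ends. Reads in the shared stretch fall on both genes, and the rule for counting them is not given. The stretches are shown with 12 flanking bases, from GENCODE release 29 on GRCh38, with the shared part in capitals.
MT-ATP8/MT-ATP6 (chrM:8527-8572, heavy-strand genes): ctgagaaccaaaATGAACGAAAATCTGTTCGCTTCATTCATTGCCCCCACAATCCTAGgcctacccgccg
MT-ND4L/MT-ND4 (chrM:10760-10766): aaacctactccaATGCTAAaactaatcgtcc
The shared bases are 46 of the 207 of MT-ATP8 (22.2%) and 7 of the 297 of MT-ND4L (2.36%).

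MT-ATP8 was at 62.2, 45.6 and 40.2 CPM in CAD-KO+IR and at 43.8, 53.4 and 156 CPM in sgVec+IR. Its log2 fold change of −0.77 ± 0.49 (SE; edgeR adjusted p = 0.9999), the lowest of the mitochondrial genes, came from the third sgVec+IR library, and was 0.09 without it and the second CAD-KO+IR library. MT-ND4L was at 366, 517 and 298 CPM against 296, 332 and 857 CPM, with −0.33 ± 0.44 in all libraries and 0.09 without both. Set against their transcript partners per kilobase, MT-ATP8 stood at 0.0776 of MT-ATP6 in the third sgVec+IR library and at 0.0214 to 0.0379 in the others, and MT-ND4L at 0.307 of MT-ND4 there and at 0.115 to 0.157 in the others. MT-ATP6 and MT-ND4 themselves were at 6636 and 12959 CPM in that library, below the second CAD-KO+IR library (7020 and 17517 CPM). The remaining libraries were lower, at 5396 to 5925 and 10837 to 12005 CPM.

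Per length, every nuclear subunit was below 12 of the 13 mitochondrial genes, and ATP5F1B alone was above MT-ATP8 in both groups. It is the highest nuclear member and encodes the catalytic beta subunit of complex V, at 698 CPM per kilobase in CAD-KO+IR and 710 in sgVec+IR, followed by UQCRH, the hinge protein of complex III, at 286 and 273, and NDUFS5 of complex I at 279 and 263. UQCRH and NDUFS5 did not differ beyond their spread. Median levels were 33.3 CPM per kilobase for the 37 genes of complex I, 26.7 for the 4 of complex II, 34.2 for the 9 of complex III, 52.7 for the 17 of complex IV and 55.8 for the 20 of complex V. In CPM, ATP5F1B was at 1307, 1265 and 1277 in CAD-KO+IR and at 1322, 1320 and 1276 in sgVec+IR (log2 fold change −0.03 ± 0.10, SE). Of the 87 genes, 18 share exons with another gene of the table on the same strand in GENCODE 29, with a median of 10.9 CPM per kilobase against 46.2 for the other 69, and their counts are uncertain. Overlaps with genes of the opposite strand are not in this count, and they reach 61.6% of the exonic bases in ATP5ME. Counts of such genes are uncertain too, since the strand setting is not given. Same-strand overlaps with annotated genes that were not counted here are also left out, at 34.5% of the exonic bases in COX8A and 15.4% in ATP5MK. These counts carry the same uncertainty. SDHA, the flavoprotein of complex II, was at 4.50 to 6.01 CPM, whereas its partner SDHB, the iron-sulfur protein, was at 103 to 131 CPM. SDHA has near-identical pseudogenes (3 annotated under its name), and its count is uncertain as well. Other members have more pseudogenes annotated under their names, among them COX6C with 17 and NDUFB4 with 12. Their part in the counts was not tested.

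Of the 79 nuclear genes tested, 29 had a positive and 50 a negative log2 fold change, with a median of −0.09. Without the third sgVec+IR library the median was 0.04 with 43 of 79 positive, and without that library and the second CAD-KO+IR library it was −0.02 with 35 of 79 positive. The third sgVec+IR library held the highest value of the 6 for 38 and the lowest for 22 of the 79, which is 75.9% of them, while the second CAD-KO+IR library held 13 and 8. Replicates 1 and 2 of sgVec+IR differed by a median of 0.0746 on the log2 scale over the 79 genes, replicates 2 and 3 by 0.624, replicates 1 and 3 of CAD-KO+IR by 0.128 and replicates 1 and 2 of CAD-KO+IR by 0.227. For the mitochondrial genes these medians were 0.0385, 0.189, 0.114 and 0.439 in the same order.

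Among nuclear genes, the deviation of the third sgVec+IR library was related to base composition. On the log2(CPM + 1) scale, its difference from the mean of the other sgVec+IR libraries had a Spearman correlation of −0.561 (Pearson −0.567) with the GC content of the transcript over the 79 nuclear genes, and that of the second CAD-KO+IR library from the others of its group one of −0.617 (Pearson −0.663). The deviations of these libraries correlated with each other (Spearman 0.673). Over 12913 genes the values were −0.753, −0.834 and 0.732. Over the 13 mitochondrial genes, whose GC content covers 39.6% to 47.7%, the signs differed, with Spearman values of −0.775 for the third sgVec+IR library, 0.319 (Pearson 0.542) for the second CAD-KO+IR library and −0.0824 (Pearson −0.323) between the deviations. For the third sgVec+IR library the Spearman value with transcript length was −0.769 over these 13 genes and 0.0357 over the 79 nuclear genes. GC content and length thus cannot be told apart for the mitochondrial genes. These are descriptions across genes that share their libraries, with no test. Of the 20 nuclear members of lowest GC (36.4% to 43.6%), 18 were higher in the third sgVec+IR library than in the other sgVec+IR libraries, against 4 of the 20 of highest GC (54.7% to 69.6%), and in the second CAD-KO+IR library the counts were 19 and 5. The 20 of lowest GC had a median log2 fold change of −0.20 in all libraries and 0.02 without both, and the 20 of highest GC had −0.06 and −0.12. After a correction for GC content within each library, edgeR still called 0 members, and the medians were 0.08 for mitochondrial and −0.08 for nuclear genes.

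**Figure D3:**
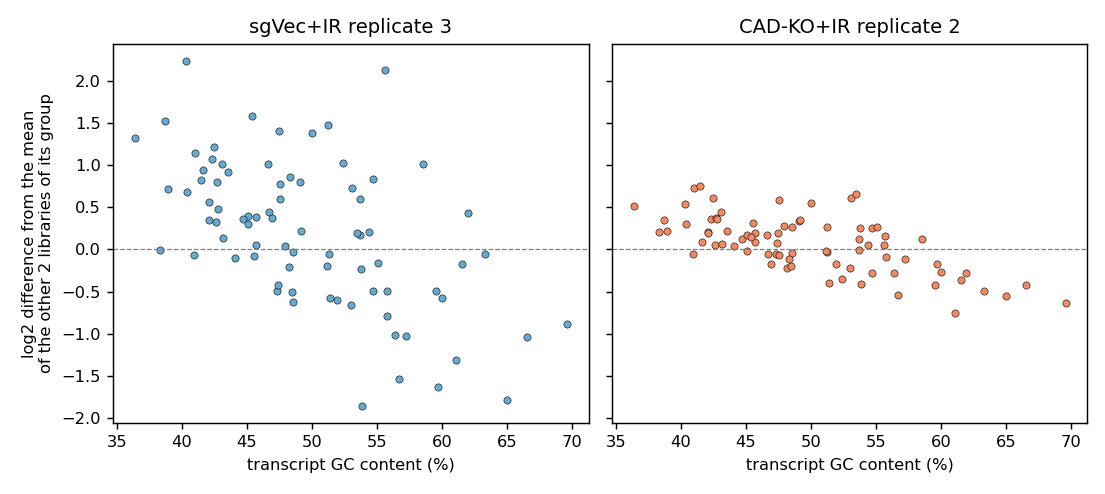
Difference of the third sgVec+IR library (left) and of the second CAD-KO+IR library (right) from the mean of the other libraries of its group, in log2(CPM + 1), against the GC content of the transcript in percent, for 79 nuclear genes (points). Genes of low GC lie mostly above 0 and genes of high GC mostly below it, over a wider range in the left panel.

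Complex I, the NADH dehydrogenase, had 15 nuclear genes with a positive and 21 with a negative log2 fold change of 36 tested, with a median of −0.06, and without both libraries 18 of 36 were positive, with a median of −0.002. Its summed nuclear level was 1944, 1807 and 1834 CPM in CAD-KO+IR and 1957, 1967 and 1902 CPM in sgVec+IR. NDUFA7, an accessory subunit, had the highest log2 fold change, 1.58 ± 0.83 (SE; edgeR adjusted p = 0.9999). It was at 0.921, 1.002 and 0.683 CPM against 0.550, 0.274 and 0 CPM, so that the groups did not overlap at a level near the filter. Only the CAD-KO+IR libraries met that filter, so NDUFA7 was tested only through the group where it is high. AC010323.1 shares 456 of its exonic bases. NDUFA2, another accessory subunit, had the lowest, −0.60 ± 0.41, and without both libraries it was 0.01. NDUFS8 and NDUFS3, subunits of the arm that carries the iron-sulfur clusters, and NDUFB4, of the membrane arm, were lower in every CAD-KO+IR than in every sgVec+IR library. NDUFS8 was at 75.4, 51.0 and 69.3 CPM against 78.7, 86.1 and 79.3 CPM (log2 fold change −0.32 ± 0.19). NDUFB4 was at 70.4, 74.3 and 66.2 CPM against 76.8, 78.0 and 99.4 CPM (−0.27 ± 0.17), and NDUFS3 at 65.8, 66.7 and 62.8 CPM against 67.6, 68.8 and 78.7 CPM (−0.14 ± 0.15). None of these passed the test (edgeR adjusted p = 0.9999). NDUFS3 shares 721 exonic bases with PTPMT1.

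Complex II, succinate dehydrogenase, had 2 genes of each sign and a median of 0.01. Its extremes were SDHB, at 115, 131 and 103 CPM in CAD-KO+IR and 110, 106 and 106 CPM in sgVec+IR (0.12 ± 0.16), and the membrane anchor SDHD, at 47.4, 87.3 and 57.7 CPM against 54.8, 50.2 and 117 CPM (−0.21 ± 0.39). SDHD was highest of its group in each of the libraries that stood apart, and without them its log2 fold change was 0.002.

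Complex III passes electrons from ubiquinol to cytochrome c, and of its 9 nuclear genes 5 were positive and 4 negative, with a median of 0.01. UQCR11, a small subunit, was at 17.1, 16.03 and 15.1 CPM in CAD-KO+IR and at 13.03, 12.9 and 14.7 CPM in sgVec+IR. The groups did not overlap (log2 fold change 0.25 ± 0.19, SE; edgeR adjusted p = 0.9999), it was 0.32 without both libraries, and UQCR11 shares 235 exonic bases with AC005943.1. UQCR10, the other extreme, was at 13.4, 14.3 and 11.6 CPM against 11.1, 11.0 and 31.0 CPM (−0.43 ± 0.43), and 0.18 without both.

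Complex IV, cytochrome c oxidase, had the lowest median of the complexes, −0.21, with 4 positive and 8 negative of 12 tested, and −0.05 without both libraries, then with 2 positive. Its summed nuclear level was 843, 918 and 779 CPM in CAD-KO+IR and 883, 869 and 1108 CPM in sgVec+IR. COX6C, a structural subunit, had the lowest p of this complex. It was at 82.2, 89.5 and 73.6 CPM in CAD-KO+IR and at 99.3, 90.7 and 122 CPM in sgVec+IR, a log2 fold change of −0.34 ± 0.18 (SE; edgeR adjusted p = 0.9999) with no overlap. COX7A2L, which the name rule includes although it is known as a supercomplex assembly factor, was at 63.1, 68.5 and 67.6 CPM against 74.1, 73.0 and 81.0 CPM, again with no overlap (−0.20 ± 0.15, edgeR adjusted p = 0.9999). COX8A was the lowest of the complex at −0.45 ± 0.32 (30.3, 30.6 and 26.0 CPM against 28.5, 30.1 and 60.02 CPM) and −0.05 without both, and COX6A1 the highest at 0.39 ± 0.27 (14.7, 22.0 and 12.6 CPM against 12.2, 11.8 and 13.9 CPM).

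In all, 3 of the 92 members (3.26%; MT-ND1, UQCR11 and NDUFA7) were higher in every CAD-KO+IR library than in every sgVec+IR library, against 5.23% of all genes tested. The opposite held for 6 of the 92 (6.52%; MT-ND6, COX6C, NDUFB4, NDUFS8, COX7A2L and NDUFS3), against 5.01% of all genes. Both shares are near the background, and NDUFA7 passed the filter on low counts only through CAD-KO+IR.

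Complex V had 3 positive and 15 negative of 18 tested, a median of −0.11, and −0.01 without both libraries, then with 8 positive. Its summed level was 3332, 3512 and 3248 CPM in CAD-KO+IR and 3361, 3358 and 4143 CPM in sgVec+IR. ATP5ME, a membrane subunit with genes of the opposite strand over 61.6% of its exonic bases, had the lowest log2 fold change of the nuclear members, −1.10 ± 0.68 (SE, edgeR adjusted p = 0.9999). It was at 5.96, 5.54 and 4.67 CPM in CAD-KO+IR and at 4.04, 6.02 and 25.0 CPM in sgVec+IR, and without both libraries the value was 0.10. ATP5IF1, the inhibitor of ATP hydrolysis that the name rule includes, was likewise at 14.8 to 19.5 CPM in 5 libraries and at 50.3 CPM in the third sgVec+IR library (−0.71 ± 0.45, and −0.11 without both). ATP5MK, the highest of the complex, was at 0.01 ± 0.28.

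The c subunit, whose ring turns with the flow of protons, is the same mature protein from ATP5MC1, ATP5MC2 and ATP5MC3, which differ in their import sequences. ATP5MC3 gave 55.7%, 58.7% and 56.1% of their summed CPM in CAD-KO+IR and 54.2%, 55.1% and 65.0% in sgVec+IR. ATP5MC2 gave 15.02%, 15.6% and 15.8% against 17.5%, 17.8% and 10.6%, and ATP5MC1 the remaining 25.7% to 29.3% against 24.4% to 28.3%. The third sgVec+IR library held the lowest ATP5MC2 share of all libraries, and the group means were 15.46% in CAD-KO+IR against 15.32% in sgVec+IR. Only with that library left aside was the ATP5MC2 share lower in each CAD-KO+IR library. In CPM, ATP5MC2 was at 58.3, 54.6 and 59.9 in CAD-KO+IR and at 71.4, 74.3 and 35.1 in sgVec+IR (log2 fold change −0.07 ± 0.29), ATP5MC1 had 0.01 ± 0.20 and ATP5MC3 −0.07 ± 0.13.

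**Figure D4:**
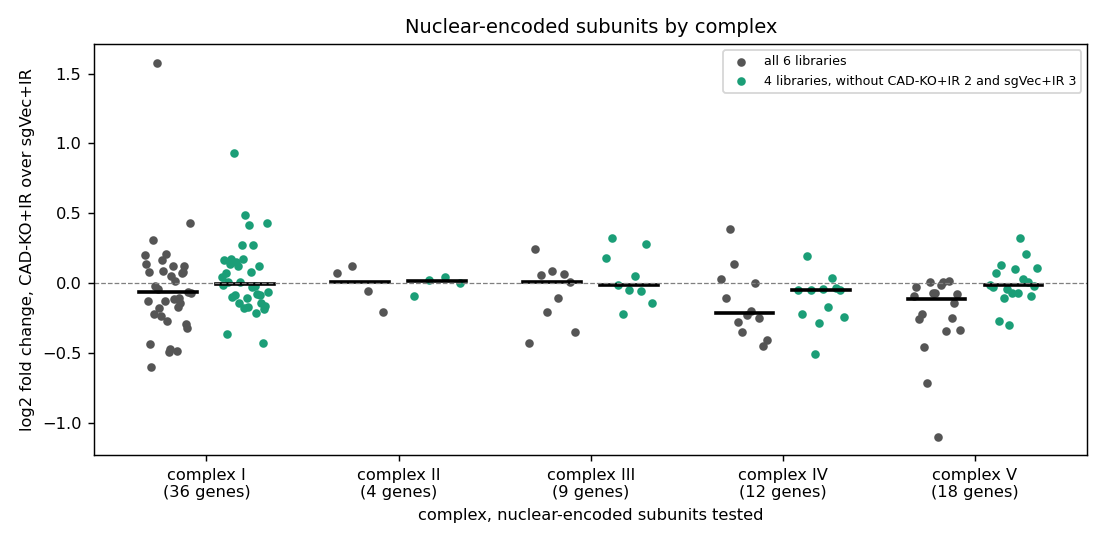
Log2 fold change (CAD-KO+IR over sgVec+IR) of the 79 nuclear genes tested, by complex, from all 6 libraries (grey) and from the 4 left without the second CAD-KO+IR and the third sgVec+IR libraries (green), with black lines for medians. The median of complex IV moves from −0.21 to −0.05 and that of complex V from −0.11 to −0.01.

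Paralogs known from particular tissues were low or not counted in these epithelial cells. COX6A2, the muscle form of COX6A, had no count in any library, while COX6A1 was at 11.8 to 22.0 CPM. COX7A1, the other muscle form, was at 0 to 0.512 CPM beside 90.1 to 133 CPM for COX7A2, and COX8C at 0 to 0.183 CPM beside COX8A. COX6B2, known from testis, was at 0 to 1.985 CPM beside 55.4 to 99.1 CPM for COX6B1, and NDUFA4L2 was at 0 to 0.626 CPM beside 87.1 to 172 CPM for NDUFA4. UQCRHL, a near-identical copy of UQCRH, was at 2.79 to 5.53 CPM beside 130 to 188 CPM. Of these pairs, NDUFA4 had −0.41 ± 0.24, COX7A2 −0.23 ± 0.18, COX6B1 0.14 ± 0.24, UQCRH 0.07 ± 0.18, COX6B2 −0.28 ± 0.84 and UQCRHL 0.01 ± 0.36 (log2 fold change ± SE). The 8 members under the filter were COX6A2, COX7A1, COX7B2, COX8C, NDUFA4L2, ATP5MGL and the readthrough genes NDUFC2-KCTD14 and ATP5MF-PTCD1.

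Calls among the members appeared when the 2 libraries that stood apart had less or no weight, a choice made after the data were seen for the fit that leaves them out. With sample weights in limma-voom, 13 of 92 members (14.1%) had an adjusted p under 0.05, against 22.3% of all genes tested. In edgeR without the second CAD-KO+IR and the third sgVec+IR libraries the count was 9 of 92 (9.78%), against 16.2% of all 13059 genes tested there. In edgeR without the third sgVec+IR library alone, 3 of 92 (3.26%; ATP5MC2, NDUFB5 and ATP5MG) had an unadjusted p under 0.05, against 11.9% of all genes. In each case the members' share was below that of all genes. No member with an adjusted p under 0.05 in the first 2 of these fits also changed by 1.5-fold, and of the 3 in the last, NDUFB5 had a log2 fold change of 0.70, ATP5MG of 0.57 and ATP5MC2 of −0.34.

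All 9 genes called without both libraries were among the 13 called with sample weights. Those weights were low for the same libraries, so that this overlap is no separate support. The share of lower genes among all genes called is not given here, and 8 of the 9 members were lower in CAD-KO+IR. Among these were MT-CO3 and MT-ND6, the core subunit UQCRC1 of complex III, COX6C and NDUFA4 of complex IV, and ATP5F1D and ATP5MC2 of complex V, with log2 fold changes of −0.13 to −0.30 in the 4 libraries. UQCRC1 was at 235 and 221 CPM in replicates 1 and 3 of CAD-KO+IR and at 260 and 273 CPM in replicates 1 and 2 of sgVec+IR (−0.22, adjusted p = 0.00661). ATP5F1D was at 132 and 121 CPM against 150 and 156 CPM (−0.27, adjusted p = 0.00256), ATP5MC2 at −0.30 (adjusted p = 0.00506) and COX6C at −0.28 (adjusted p = 0.00533). NDUFB5, of complex I, was the gene that was higher, at 23.2 and 28.4 CPM against 20.2 and 16.4 CPM (0.49, adjusted p = 0.00336). In the libraries left out, NDUFB5 was at 37.6 CPM in CAD-KO+IR and 89.4 CPM in sgVec+IR, and ATP5F1D at 80.9 and 82.6 CPM, so that with all 6 libraries their log2 fold changes were −0.49 ± 0.64 and −0.22 ± 0.30.

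Promoters of the nuclear members were searched on both strands for short motifs of factors known to drive respiratory genes, in the 250 bases before and 50 after the start in RefSeq (GRCh38.p14), which held 69 of the 87. GCGCATGC, a core of the NRF1 site, was in 13 (18.8%), against 5.25% of 10419 other genes tested. AAGATGGC of YY1 was in 11 (15.9%) against 5.17%, CCGGAAG of ETS factors such as GABPA in 19 (27.5%) against 18.7%, and CCAAT in 25 (36.2%) against 36.6%. A match is a description of the letters and not a site. The 100 bases before the start are shown for 4 members that hold the NRF1 letters there, since they share this word and differ in their counts. Not all members were considered for this display, so others of higher mean CPM may hold these letters too. Capitals mark the NRF1 letters on either strand, where matches can overlap.
ATP5F1C (chr10:7788077-7788176, plus strand): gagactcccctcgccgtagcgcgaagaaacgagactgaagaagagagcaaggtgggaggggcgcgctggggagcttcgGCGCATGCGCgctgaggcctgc
ATP5MC2 (chr12:53676084-53676183, minus strand): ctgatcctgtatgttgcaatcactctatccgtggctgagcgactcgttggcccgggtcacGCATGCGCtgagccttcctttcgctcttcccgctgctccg
NDUFS6 (chr5:1801307-1801406, plus strand): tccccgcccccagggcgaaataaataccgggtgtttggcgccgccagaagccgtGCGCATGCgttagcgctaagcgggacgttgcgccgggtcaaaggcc
ATP5ME (chr4:674277-674376, minus strand): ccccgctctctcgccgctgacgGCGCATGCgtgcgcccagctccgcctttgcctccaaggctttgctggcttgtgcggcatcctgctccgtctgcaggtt
With the same letters upstream, ATP5F1C (log2 fold change −0.26 ± 0.32, SE) was at 289 CPM in the third sgVec+IR library against 143 and 130 CPM in the others of its group, and ATP5ME at 25.0 against 4.04 and 6.02 CPM. ATP5MC2 was at 35.1 against 71.4 and 74.3 CPM and NDUFS6 (0.13 ± 0.47) at 16.8 against 59.0 and 67.7 CPM, so that these genes moved in opposite directions in that library.

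Genes that serve the same complexes were read from lists outside the name rule. Of 50 assembly factors tested, 0 had an edgeR p under 0.05, 23 were positive and 27 negative, with a median log2 fold change of −0.02, and COX14, an early complex IV assembly factor, had the lowest p (7.525 ± 1.04 CPM in CAD-KO+IR against 11.2 ± 2.11 CPM in sgVec+IR, SD, n = 3; −0.56 ± 0.24, edgeR adjusted p = 0.9999). COX16, another, was at 1.355, 2.90 and 2.45 CPM against 1.16, 1.30 and 0 CPM (1.41 ± 0.71). Of 31 genes of mitochondrial DNA expression, 19 were positive and 12 negative, with a median of 0.07, which was 0.09 without both libraries. Among them SSBP1, which binds single-stranded mitochondrial DNA, was at 109, 135 and 114 CPM against 105, 98.8 and 63.3 CPM (0.42 ± 0.23, edgeR adjusted p = 0.9999), and FASTKD3, of the FASTK family of mitochondrial RNA regulators, had 0.43 ± 0.24. TFAM, which packs and transcribes mitochondrial DNA, was at 76.8, 116 and 97.5 CPM against 74.0, 70.4 and 113 CPM (0.17 ± 0.25), and POLRMT, the mitochondrial RNA polymerase, had 0.08 ± 0.40. Of 10 biogenesis regulators tested, 3 were positive, with PPRC1, a coactivator of the PGC-1 family, at 0.38 ± 0.28 and GABPB2, a partner of GABPA, at −0.29 ± 0.21, and PPARGC1A had at most 0.158 CPM.

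Subunits and carriers that the name rule leaves out overlapped between the groups. CYC1, cytochrome c1 of complex III, was at 418, 237 and 373 CPM against 389, 388 and 186 CPM (0.09 ± 0.34). COX4I1 of complex IV had 0.15 ± 0.14, and NDUFAB1 of complex I, added after its values were seen, −0.13 ± 0.21. CYCS, the mobile carrier cytochrome c, was at 323, 394 and 329 CPM against 291, 286 and 505 CPM (−0.05 ± 0.25). Of 13 genes of the TCA cycle, which feeds the chain, 8 were positive with a median of 0.03, among them CS at 343, 386 and 357 CPM against 324, 315 and 315 CPM (0.19 ± 0.13) and FH (0.19 ± 0.18). Of 17 genes of glycolysis 7 were positive with a median of −0.01, and the lowest p values were those of ALDOC (−0.60 ± 0.30) and LDHB (−1.04 ± 0.78). The medians were 0.01 over 76 genes of the mitochondrial ribosome, where MRPL14 had −0.35 ± 0.20 and MRPS28 −0.62 ± 0.38, and −0.03 over 82 of the cytosolic ribosome, where RPL22L1 had −0.65 ± 0.37 and RPLP2 −0.27 ± 0.15. With all 6 libraries, none of the genes of these lists had an edgeR p under 0.05. Of the epithelial markers, CDH1 (E-cadherin) alone had an unadjusted p under 0.05 with all 6 libraries. It was at 66.3, 69.8 and 63.9 CPM against 97.6, 99.7 and 93.9 CPM (−0.54 ± 0.15, edgeR adjusted p = 0.9999), KRT18 had 0.31 ± 0.21, and COL1A1 had 0.00 ± 0.50.

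Several of these values changed without the second CAD-KO+IR and the third sgVec+IR libraries, where 16.2% of all genes had an edgeR adjusted p under 0.05. LDHB, at 76.9 CPM in the third sgVec+IR library against 10.6 and 12.4 CPM in the others of its group, had a log2 fold change of 0.14, COX16 of 0.62, SSBP1 of 0.13, RPL22L1 of −0.24, MRPS28 of −0.14 and COX14 of −0.34. In that fit, 2 of 50 assembly factors passed (both higher in CAD-KO+IR), 4 of 31 genes of mitochondrial DNA expression (all higher, TFAM at 0.27 among them), 2 of 11 biogenesis regulators (both higher, PPRC1 at 0.24) and CYCS (0.18, adjusted p = 0.0184). Of the TCA cycle 1 of 13 passed (lower), of glycolysis 3 of 17 (all lower, ALDOC at −0.74 with an adjusted p of 0.000192), of the mitochondrial ribosome 9 of 76 (6 higher and 3 lower, MRPL14 at −0.27) and of the cytosolic ribosome 8 of 83 (4 higher and 4 lower). The filter on low counts ran anew on the libraries kept, so the genes tested changed. It let through 11 biogenesis regulators, against 10 with all libraries, and 83 cytosolic ribosome genes, against 82. Of the 6 epithelial markers 4 passed, with CDH1 at −0.59 (adjusted p = 1.87e-08, past 1.5-fold), KRT19 at −0.31, CDX2 at −0.33 and KRT18 at 0.17, whereas COL1A1 (−0.23, adjusted p = 0.0705) did not. With sample weights in limma-voom CDH1 was at −0.61 (adjusted p = 4.6e-05). The part of these markers in the members' values was not tested.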

How the data were processed

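HCT116 RNA-seq of 3 CAD-KO+IR and 3 sgVec+IR libraries was analysed. The authors extracted total RNA with TRIzol, made libraries with a SMARTER mRNA-Seq kit, trimmed reads with fastp, counted reads per gene with featureCounts (version 1.5.0-p3) and deposited these counts without normalization. The aligner, the human build and the strand setting are not given in the sources used here, and the labels list a mouse build and genomic DNA, whereas the gene identifiers are human. Columns carry the sample titles, and groups follow the labels' genotype. The dose and time come from the paper.

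The filterByExpr function (minimum count 10, total 15) left 12925 of 20020 genes. In R 4.3.3, edgeR 4.0.16 (TMM, quasi-likelihood test with the newer method, fold changes as CAD-KO+IR over sgVec+IR, Benjamini-Hochberg adjustment over all genes tested) compared the groups, and a call needed at least 1.5-fold and an adjusted p below 0.05. DESeq2 1.42.0 on unfiltered counts and limma 3.58.1 (voom, with and without sample weights) were alternatives, as were other normalizations, filters and dispersions, the replicate block, corrections for GC content and transcript length (lowess, span 0.3) and leaving out libraries. CPM use TMM-scaled library sizes. Levels per kilobase and GC content use 1 principal transcript per gene of GENCODE release 29 on GRCh38, to which 19823 gene identifiers and all 100 members matched by identifier. Positions were linked to the counts by gene identity only. NDUFA4 was placed in complex IV. The scripts were tested on simulated data that held no library standing apart and no trend with GC content, so that test does not cover these features.

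The members and lists were chosen with earlier results of these data known. Named were all mitochondrial members, the extremes of each complex, members whose groups did not overlap, the c subunit genes, tissue paralogs, the highest levels per length, DFFB and up to 2 genes of lowest p of each list. ATP5IF1, NDUFS5, SDHA, NDUFB5, ATP5MG, UQCRC1, ATP5F1D, ATP5F1C, NDUFS6, TFAM, POLRMT, PPARGC1A and CYCS were added after their values were seen. A further member is counted but not reported here by name. Totals of 14032994 to 19574144 counts set the precision, and, with no molecular identifiers, reads of 1 fragment copied by PCR count more than once.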

Additional observations from a re-analysis of the deposited data

How the results depend on the processing

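The count of members past both thresholds was 0 in edgeR and under each alternative run, and with all libraries it was also 0 without the fold threshold in edgeR and DESeq2 and at an unadjusted p under 0.05 in edgeR. Over all genes, edgeR called 4, DESeq2 41 (41 also with no fold threshold), limma-voom 0, limma-voom with sample weights 666, edgeR with a GC correction 17, and 368 passed an unadjusted p under 0.05. Leaving out single libraries, or both that stood apart, gave 0 to 440. The replicate block gave 0 (2 with the GC correction) and 0 members. Deviations of samples with the same replicate number correlated at 0.468, −0.545 and −0.379 over 12925 genes. The libraries that stood apart deviate alike and carry different replicate numbers, so these correlations cannot decide whether the numbers mark pairs. The main fit did not read the numbers as pairs. With the replicate block the median was 0.10 for mitochondrial and −0.07 for nuclear members. The mitochondrial median was −0.08 with sample weights and −0.09 to 0.21 with libraries left out. The nuclear median was −0.13 to 0.039 with libraries left out. The group difference in the mean log2 ratio of mitochondrial to nuclear CPM was then −0.010 to 0.31. Of 39 named genes, 22 changed sign under some alternative. None of the members passed both thresholds under any of these, while DFFB passed them in DESeq2 (−1.01), with sample weights (−0.92) and without both libraries (−0.996). The cause was not tested. With sample weights the log2 fold change was −0.013 for MT-ND4, −0.078 for MT-CO1, −0.040 for MT-CO2, −0.11 for MT-CO3, −0.047 for MT-CYB, −0.100 for MT-ND5, 0.00076 for MT-ND4L, −0.024 for SDHB, 0.078 for SDHD, 0.11 for UQCR10, 0.012 for ATP5ME, −0.078 for ATP5MC1, −0.084 for UQCRHL, −0.087 for COX6B1, −0.094 for UQCRH. Signs also differed with limma-voom (ATP5MC2 0.0051, COX6B2 0.89, UQCRHL −0.015), scaling by total counts (ATP5MK −0.016, ATP5MC1 −0.016, UQCRHL −0.016), the length correction (MT-ATP6 0.0064, MT-ND3 0.066), normalization on nuclear genes (MT-ND3 0.0013), no filter (MT-ND3 0.0057), the GC correction with replicate block (MT-ND3 0.018, UQCRHL −0.013), the replicate block (UQCRHL −0.0092), upper-quartile scaling (ATP5MC1 −0.00096). With libraries left out the ranges were −0.10 to 0.28 for MT-ND4, −0.087 to 0.28 for MT-CO1, −0.12 to 0.24 for MT-CO2, −0.13 to 0.18 for MT-CO3, −0.17 to 0.051 for MT-ATP6, −0.066 to 0.33 for MT-CYB, −0.068 to 0.21 for MT-ND5, −0.089 to 0.089 for MT-ND3, −0.59 to 0.33 for MT-ND4L, −1.08 to 0.088 for MT-ATP8, −0.90 to 0.0095 for NDUFA2, −0.50 to 0.29 for SDHD, −0.68 to 0.25 for UQCR10, −0.16 to 0.34 for ATP5MK, −1.51 to 0.11 for ATP5ME, −0.14 to 0.10 for ATP5MC1, −0.34 to 0.12 for ATP5MC2, −0.82 to 0.15 for COX6B2, −0.31 to 0.28 for UQCRHL, −0.083 to 0.29 for COX6B1, −0.078 to 0.18 for UQCRH. The 3 libraries per group and these 2 libraries' spread limit what could be detected.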
